A study of Mus musculus with 7 samples.

Results

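The 42 genes described here carry out glycolysis, gluconeogenesis, pyruvate entry into mitochondria and glycogen metabolism, among 23347 genes counted in mouse liver. They were listed by name for what their products do, and all 42 were found in the count table, *G6pc1* under its older symbol *G6pc*. RNA was sequenced from the livers of 7 male C57BL/6 mice that had eaten CDAHFD, a choline-deficient, amino acid-defined high-fat diet that brings on steatohepatitis, for 15 weeks starting as young adults, as the study's methods give it. The 4 controls were *B4galt1* flox/flox littermates, labelled WT in the deposit, in which the gene is flanked by recombination sites and no Cre is present. The other 3 mice were labelled hepatocyte knockouts (*B4galt1* hep-/-), in which Cre driven by the albumin promoter recombines the same floxed alleles in hepatocytes, while the other liver cells keep the gene. All 7 mice had the diet, so nothing here separates genotype from an effect that needs the diet, and chow-fed livers were not analysed here.

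The liver takes up glucose when it is plentiful and releases it in fasting. Glycolysis breaks glucose down to pyruvate, gluconeogenesis runs the opposite way around its irreversible steps with its own enzymes, and glycogen is the store that is filled and emptied between meals. Hepatocytes and the other cells of the liver use different isoforms at several steps, so that the isoform with the most RNA also bears on which cells are read. In whole liver, fewer cells of a type and less RNA per cell cannot be told apart.

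Values are CPM, the count of a gene relative to the library total, scaled by edgeR's TMM method. A gene was called when the Benjamini-Hochberg adjusted p over all 15179 genes tested was under 0.05 and the log2 fold change was beyond 0.58 in either direction. Levels are compared between genes only in FPKM, which also divides by gene length. Total counts ran from 30608271 to 39668509 per liver, and the 3 livers labelled hep-/- had the 3 smallest totals. In these, *B4galt1* stood at 28.4, 23.9 and 53.7 CPM, while the controls lay between 48.7 and 53.0 CPM. Liver 3 labelled hep-/- thus goes against its label in this measure, and results are also given without it. Mitochondrially encoded transcripts took 3.88% to 7.996% of counts in controls and 14.4% to 22.6% in livers labelled hep-/-. Leaving these transcripts out of the totals gave the same 13 calls. The 10 hepatocyte markers checked were present in every liver, with no call among them and a sum of 102431 to 146004 CPM in control livers and 109591 to 176165 CPM in livers labelled hep-/-.

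Of the 42 genes, 12 fell and 1 rose in the livers labelled hep-/-, and 29 were not called. By step, the calls were in lower glycolysis (5 of 8 genes lower, 1 higher), glycogen (4 of 5 lower) and gluconeogenesis (2 of 6 lower), with *Tpi1* as the call among 6 genes of upper glycolysis. No call fell on glucose transport (0 of 2), *Hk1* to *Hk3* (0 of 3), pyruvate entry and the pyruvate dehydrogenase complex (0 of 7), ketohexokinase or the regulators (0 of 4). The 12 genes are 28.6% of the members, where 7.83% of all genes tested were called lower and 8.0% higher. Well-expressed genes were called lower more often, so the share was also taken over the 1580 genes with a mean FPKM at or above the median of the members (31.2 FPKM), where it was 16.1%, against 10 of the 21 members in that range.

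A log2 fold change below 0 was found for 29 of the 42 genes and 48.7% of all genes. The median log2 fold change of the 42 genes was -0.34, that of all genes tested 0.021. Values of 14 members lay lower in all 3 livers labelled hep-/- than in every control and those of 4 lay higher. Beyond the 13 called genes these were *Pfkm* and *Pdk2* below and *Pfkfb1*, *Slc2a1* and *Pgm2* above, and over all genes 15.0% and 13.6% did so. Without liver 3 labelled hep-/- the same 13 genes were called, against a background of 7.51% lower and 6.28% higher, and DESeq2 called the same 13 (10.2% of all genes lower, 11.2% higher). Leaving out control liver 2 left 5 of the 13, *Fbp1*, *Pcx*, *Pgam1*, *Pkm* and *Pgm1*.

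**Figure D1:**
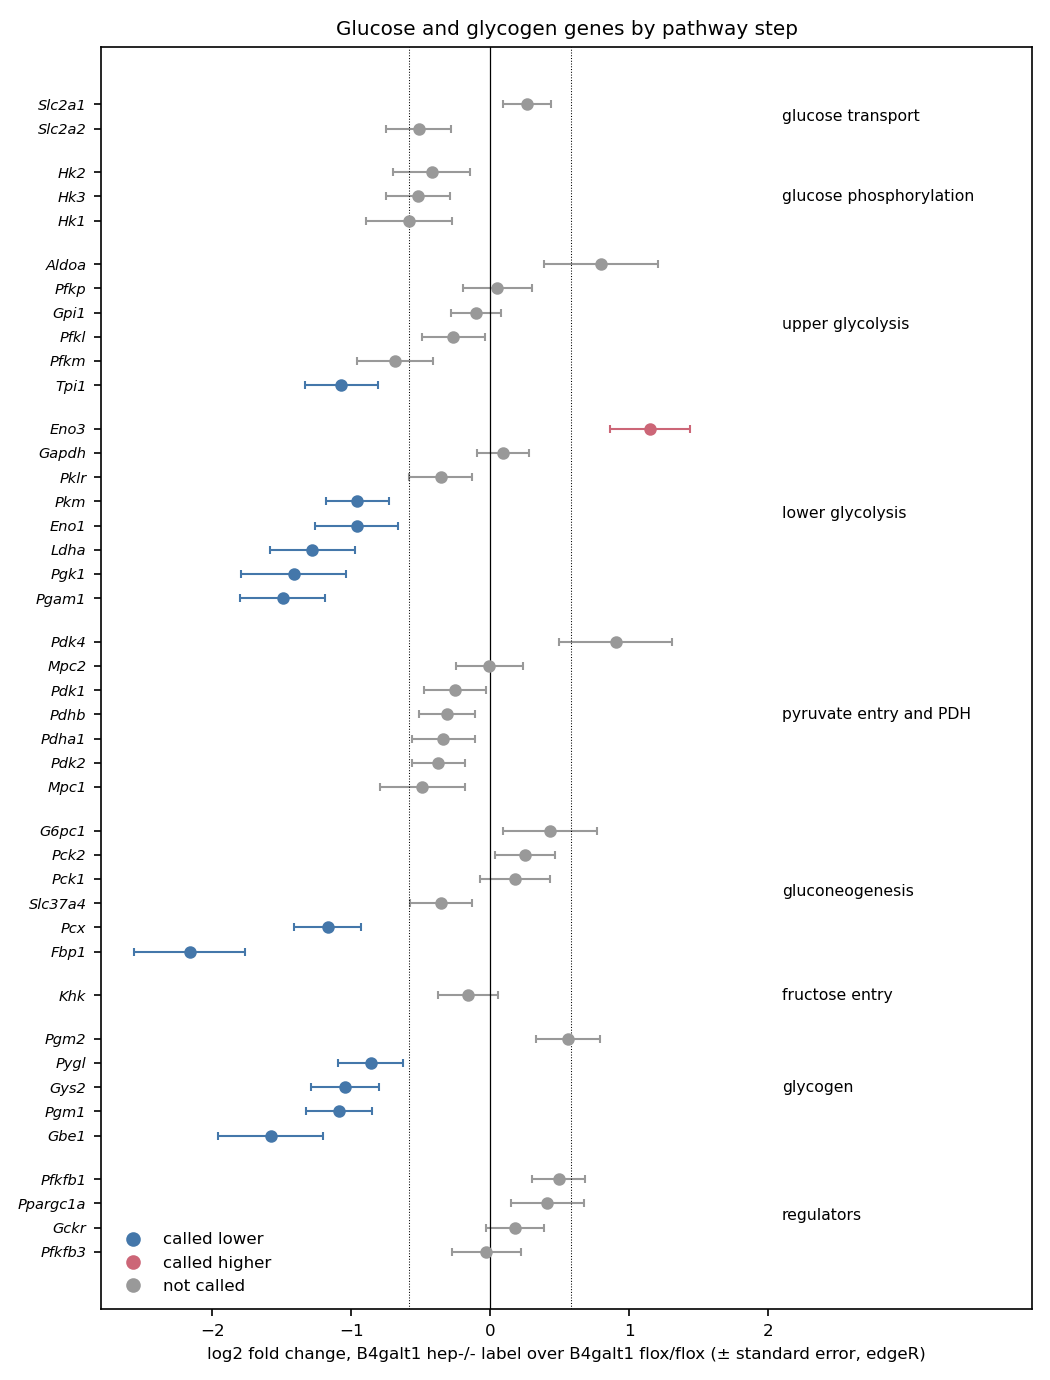
Each point is the log2 fold change of a gene (x axis, livers labelled hep-/- over B4galt1 flox/flox controls, with its standard error from edgeR), with genes grouped by step on the y axis and dotted lines at 0.58 in either direction. Blue marks the 12 genes called lower, red the 1 called higher and grey the 29 not called, and *Fbp1* lies farthest to the left at -2.16.

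In gluconeogenesis, the RNA of *Fbp1* and *Pcx* fell while that of the other 4 genes was not called. *Fbp1* (NCBI gene 14121), fructose bisphosphatase, removes a phosphate from fructose bisphosphate and so opposes phosphofructokinase. It was measured at 748, 857, 756 and 1007 CPM in control livers 1 to 4 and 126, 97.2 and 342 CPM in livers 1 to 3 labelled hep-/-. Every liver with the hep-/- label was far under every control, and liver 3 was the highest of the 3. The means were 842 ± 120.4 CPM (SD, n = 4) against 188 ± 134 CPM (SD, n = 3), 4.48-fold lower (log2 fold change -2.16, standard error 0.40, edgeR adjusted p = 0.00752), and without liver 3 the log2 fold change was -2.93 (edgeR adjusted p = 0.00118). On the FPKM scale *Fbp1* was the second most abundant of the 42 genes in controls at 505 ± 30.7 (SD, n = 4) and the sixth at 101 ± 64.2 (SD, n = 3) in the other livers.

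*Pcx* (NCBI gene 18563), pyruvate carboxylase, which makes oxaloacetate from pyruvate in mitochondria, had 504, 549, 580.5 and 451 CPM in control livers 1 to 4 and 220.0, 167 and 309 CPM in livers 1 to 3 labelled hep-/-. The groups were apart, again with liver 3 nearest to the controls. Its mean level was 521 ± 56.4 CPM (SD, n = 4) against 232 ± 71.6 CPM (SD, n = 3) (log2 fold change -1.17, standard error 0.24, edgeR adjusted p = 0.0111), or -1.44 (edgeR adjusted p = 0.00752) without liver 3. *Fbp1* and *Pcx* were called in each of the 7 fits that left out a liver.

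*Pck1* (NCBI gene 18534), the cytosolic carboxykinase that turns oxaloacetate into phosphoenolpyruvate, had the highest FPKM of the 42 genes in both groups, 1406 ± 183 (SD, n = 4) and 1461 ± 117 (SD, n = 3). In CPM it stood at 2744, 3474, 3745 and 4456 CPM in control livers 1 to 4 and 4637, 3316 and 4293 CPM in livers 1 to 3 labelled hep-/-. The groups overlapped widely, and the difference was not called (log2 fold change 0.18, standard error 0.25, edgeR adjusted p = 0.649). *G6pc1* (NCBI gene 14377), the glucose-6-phosphatase that frees glucose for release, had 104, 143, 338 and 221 CPM in control livers 1 to 4 and 233, 269 and 311 CPM in livers 1 to 3 labelled hep-/-. Among controls it varied more than 3-fold, liver 3 being the highest of all 7 and liver 1 the lowest, and it too was not called (log2 fold change 0.43, standard error 0.34, edgeR adjusted p = 0.403). The mitochondrial isoform *Pck2* had 16.4 ± 2.26 CPM (SD, n = 4) against 19.6 ± 5.16 CPM (SD, n = 3) and was not called, with a log2 fold change of 0.25 (edgeR adjusted p = 0.444). *Slc37a4*, which carries glucose-6-phosphate into the endoplasmic reticulum, had a log2 fold change of -0.35 (edgeR adjusted p = 0.298) and overlapping groups.

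*Fbp1* was called and *Pck1*, the most abundant gene of the same pathway, was not, and the promoters of both are shown for that reason, from 250 bases before to 50 after the start in RefSeq on GRCm38.p6. Capitals mark the core of cAMP response elements, ACGTCA on either strand, through which glucagon signalling is known to act on *Pck1*.
Pck1, chr2:173152823-173153122, + strand: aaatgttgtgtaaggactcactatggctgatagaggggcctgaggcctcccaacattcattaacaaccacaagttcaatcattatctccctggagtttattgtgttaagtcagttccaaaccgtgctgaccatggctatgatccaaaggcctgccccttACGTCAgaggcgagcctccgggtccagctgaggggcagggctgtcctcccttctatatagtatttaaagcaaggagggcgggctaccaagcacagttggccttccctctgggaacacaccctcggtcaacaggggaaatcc
Fbp1, chr13:62888233-62888532, - strand: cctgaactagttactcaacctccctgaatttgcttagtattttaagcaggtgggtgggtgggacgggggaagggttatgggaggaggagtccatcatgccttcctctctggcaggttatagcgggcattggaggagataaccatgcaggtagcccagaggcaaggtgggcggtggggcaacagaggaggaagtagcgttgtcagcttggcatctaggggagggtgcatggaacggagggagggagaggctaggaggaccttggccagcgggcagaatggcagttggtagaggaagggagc
The *Pck1* window holds the core at 91 bases before the start, and the *Fbp1* window does not hold these letters. Of 32851 promoters of this length, 7.51% hold the core, against 9 of the 62 promoters of members (14.5%). Among the 41 members with a promoter in the RefSeq table, all but *Gys2*, it was found in 8 genes, called or not, and in 2 of the 11 called lower, *Ldha* and *Pkm*. By promoter, it was in 12.5% of those of genes called lower and 15.6% of those of genes not called. Whether the element bears on the calls of *Pck1* and *Fbp1* was not tested.

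Of the 8 genes of lower glycolysis, *Pgam1*, *Pgk1*, *Ldha*, *Eno1* and *Pkm* fell, *Eno3* rose, and *Gapdh* and *Pklr* were not called. Of the 6 genes of upper glycolysis, *Tpi1* fell and the other 5 were not called. *Ldha* (NCBI gene 16828), the subunit of lactate dehydrogenase that makes lactate from pyruvate, was measured at 1163, 1659, 1149 and 1386 CPM in control livers 1 to 4 and 543, 321 and 791 CPM in livers 1 to 3 labelled hep-/-. All 3 livers with the hep-/- label were under the lowest control, liver 3 least so. The means were 1339 ± 239 CPM (SD, n = 4) against 552 ± 235 CPM (SD, n = 3) (log2 fold change -1.28, standard error 0.30, edgeR adjusted p = 0.0189), and without liver 3 the log2 fold change was -1.64 (edgeR adjusted p = 0.0102).

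*Pgam1* (NCBI gene 18648), phosphoglycerate mutase, had 77.3, 75.9, 92.5 and 65.3 CPM in control livers 1 to 4 and 24.2, 15.5 and 43.2 CPM in livers 1 to 3 labelled hep-/-, without overlap. Its means were 77.8 ± 11.2 CPM (SD, n = 4) against 27.6 ± 14.1 CPM (SD, n = 3), 2.82-fold lower (log2 fold change -1.49, standard error 0.30, edgeR adjusted p = 0.0105), and without liver 3 the log2 fold change was -1.98 (edgeR adjusted p = 0.00498). It was called in all 7 fits that left out a liver. *Pgk1* (NCBI gene 18655), phosphoglycerate kinase, the first step of glycolysis to yield ATP, was at 206, 287, 316 and 239 CPM in control livers 1 to 4 and 84.0, 43.7 and 167 CPM in livers 1 to 3 labelled hep-/-. Liver 3 labelled hep-/- came close to the lowest control, while liver 2 had the least. For *Pgk1* the means were 262 ± 49.1 CPM (SD, n = 4) against 98.3 ± 63.0 CPM (SD, n = 3) (log2 fold change -1.41, standard error 0.38, edgeR adjusted p = 0.0284), and the log2 fold change became -2.04 (edgeR adjusted p = 0.00675) once liver 3 was left out.

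*Eno1* (NCBI gene 13806), the enolase of most tissues, had 483, 492, 481 and 427 CPM in control livers 1 to 4 and 182, 155 and 388 CPM in livers 1 to 3 labelled hep-/-. Liver 3 with the hep-/- label was near the lowest control and far over its group, and the call sat at the threshold (log2 fold change -0.96, standard error 0.30, edgeR adjusted p = 0.0491). The call held in 1 of the 7 fits without a liver, the fit without liver 3, where the log2 fold change was -1.49 (edgeR adjusted p = 0.00620). *Tpi1* (NCBI gene 21991), triose phosphate isomerase, was at 402, 377, 339 and 423 CPM in control livers 1 to 4 and 163, 121 and 266 CPM in livers 1 to 3 labelled hep-/-. These groups did not overlap (log2 fold change -1.07, standard error 0.27, edgeR adjusted p = 0.0226), and without liver 3 the value was -1.45 (edgeR adjusted p = 0.00709). *Tpi1* held its call in 4 of the 7 fits without a liver and *Pgk1* in 4 of the 7, while *Ldha* lost it in the fit without control liver 2 (log2 fold change -1.17, edgeR adjusted p = 0.0582).

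*Pkm* (NCBI gene 18746), the pyruvate kinase of non-hepatocytes and dividing cells, ordered the livers otherwise. It had 142, 121, 176 and 98.0 CPM in control livers 1 to 4 and 77.3, 69.2 and 61.2 CPM in livers 1 to 3 labelled hep-/-. Here liver 3 was the lowest of its group. The difference was called (log2 fold change -0.96, standard error 0.23, edgeR adjusted p = 0.0185) and remained so without liver 3 at -0.88 (edgeR adjusted p = 0.0486). Liver pyruvate kinase, *Pklr* (NCBI gene 18770), had 37.2, 38.3, 37.8 and 34.4 CPM in control livers 1 to 4 and 30.9, 18.5 and 37.1 CPM in livers 1 to 3 labelled hep-/-. Liver 2 labelled hep-/- was low and liver 3 lay among the controls, and the gene was not called (log2 fold change -0.36, standard error 0.22, edgeR adjusted p = 0.294).

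Of 10 markers of macrophages, which use *Pkm*, 6 were called lower and 0 higher, and the sum of the 10 was 1512 to 3480.4 CPM in control livers and 705 to 799.7 CPM in livers labelled hep-/-, without overlap. The part of macrophage RNA in the change of *Pkm* was not tested. *Hk3* (NCBI gene 212032), the hexokinase of myeloid cells and the most abundant of *Hk1* to *Hk3* in FPKM, had 43.0, 27.4, 37.7 and 27.1 CPM in control livers 1 to 4 and 24.3, 28.4 and 18.1 CPM in livers 1 to 3 labelled hep-/-. Its groups overlapped and it was not called (log2 fold change -0.52, standard error 0.23, edgeR adjusted p = 0.140). *Hk1* and *Hk2* were low throughout, with log2 fold changes of -0.58 (edgeR adjusted p = 0.216) and -0.42 (edgeR adjusted p = 0.313). Among markers of other cells, 1 of 10 was called lower for stellate cells, 1 lower and 1 higher of 10 for endothelium, and none of 10 for cholangiocytes, 10 for lymphocytes or the 8 tested of 10 for neutrophils. Of 5 erythroid genes tested 1 was called lower and 1 higher, and of 2 adipocyte genes tested none was called.

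*Eno3* (NCBI gene 13808), the enolase known from muscle and also made in liver, was the 1 member that rose. It had 13.4, 6.90, 6.91 and 11.5 CPM in control livers 1 to 4 and 18.8, 29.1 and 16.5 CPM in livers 1 to 3 labelled hep-/-. All livers labelled hep-/- were above the highest control, with liver 2 well over the rest. Its means were 9.68 ± 3.30 CPM (SD, n = 4) against 21.5 ± 6.70 CPM (SD, n = 3), 2.22-fold higher (log2 fold change 1.15, standard error 0.29, edgeR adjusted p = 0.0236), and 1.30 (edgeR adjusted p = 0.0262) without liver 3. The call was lost in the fits without control liver 2, control liver 3 or liver 2 labelled hep-/- and in the tests on FPKM. Striated muscle markers were near 0 in every liver, the 6 found of 10 summing to 1.15 to 1.36 CPM in control livers and 1.15 to 1.56 CPM in livers labelled hep-/-. In the summed FPKM of *Eno1* and *Eno3*, *Eno3* took 1.01, 0.513, 0.525 and 0.981% in control livers 1 to 4 and 3.66, 6.45 and 1.54% in livers 1 to 3 labelled hep-/-. It stayed the minor enolase in all 7 livers.

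**Figure D2:**
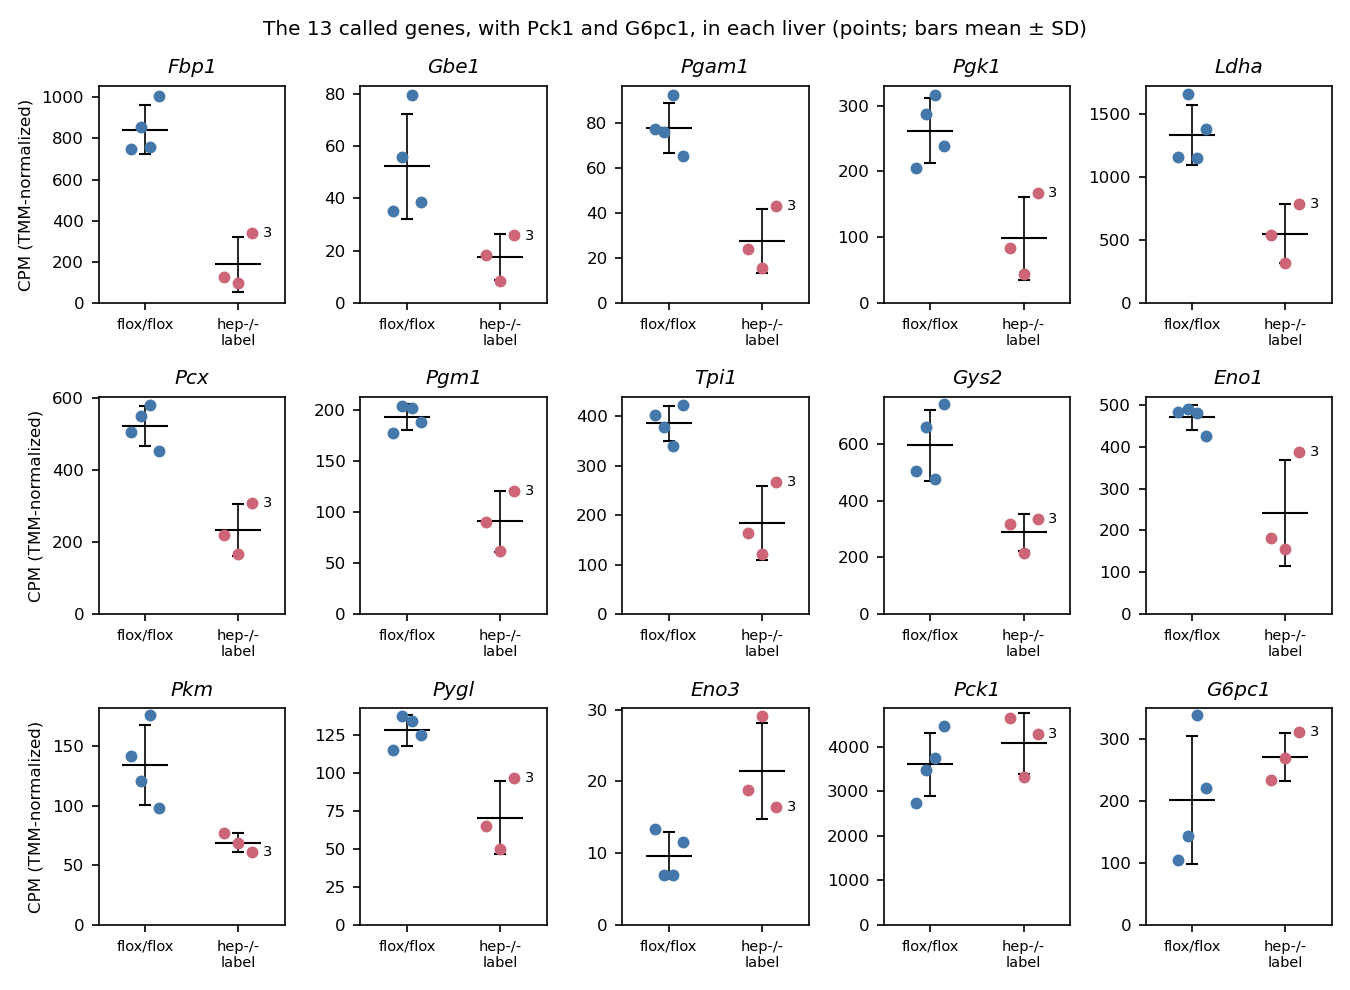
CPM on the y axis, from 0, in each liver for the 13 called genes and for *Pck1* and *G6pc1*, with controls in blue, livers labelled hep-/- in red (the numeral 3 marks liver 3) and bars for mean ± SD. The 12 genes that fell and *Eno3* show no overlap between groups, while *Pck1* and *G6pc1* do.

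The remaining genes of glycolysis were not called. *Gapdh* (NCBI gene 14433), the dehydrogenase that follows *Tpi1*, had 61.5, 58.2, 53.8 and 54.6 CPM in control livers 1 to 4 and 52.9, 53.3 and 76.3 CPM in livers 1 to 3 labelled hep-/-, with a log2 fold change of 0.093 (edgeR adjusted p = 0.762) whose sign turned on FPKM (-0.050 on log2(FPKM + 1)) and without liver 3 (-0.11). *Gpi1*, the isomerase of glucose-6-phosphate, had 196 ± 5.40 CPM (SD, n = 4) against 182 ± 23.2 CPM (SD, n = 3) and a log2 fold change of -0.10 (edgeR adjusted p = 0.725). Of the phosphofructokinases, *Pfkl* of liver had a log2 fold change of -0.27 (edgeR adjusted p = 0.441), *Pfkm* of muscle a log2 fold change of -0.68 (edgeR adjusted p = 0.105) without overlap of its groups, and *Pfkp* of platelets a log2 fold change of 0.052 (edgeR adjusted p = 0.904), a sign that turned with the scaling (-0.054 on log2(FPKM + 1)). *Aldoa*, at 2.05 ± 0.312 CPM (SD, n = 4) in controls, ranged from 1.72 to 6.02 CPM with the hep-/- label and was not called. *Gapdh*, *Aldoa*, *Eno1*, *Ldha*, *Pgk1*, *Pgam1* and *Tpi1* have near-identical retrotransposed copies in the mouse genome. How the counting treated reads shared with copies is not given in the sources used here, so the absolute levels of these genes, above all the low ones of *Gapdh* and *Aldoa*, are uncertain.

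*Ldha*, *Pgk1* and *Pgam1* are textbook targets of hypoxia-inducible factor, and their promoters are printed because these genes fell together. Capitals mark the core of its response element, ACGTG on either strand, which also lies inside the E-box CACGTG.
Ldha, chr7:46845554-46845853, + strand: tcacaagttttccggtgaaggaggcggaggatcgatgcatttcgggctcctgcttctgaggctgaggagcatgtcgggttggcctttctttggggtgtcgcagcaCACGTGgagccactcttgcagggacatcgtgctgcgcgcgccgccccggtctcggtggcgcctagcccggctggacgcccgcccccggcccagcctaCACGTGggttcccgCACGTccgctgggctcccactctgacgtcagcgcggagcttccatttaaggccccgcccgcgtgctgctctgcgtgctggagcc
Pgk1, chrX:106186850-106187149, + strand: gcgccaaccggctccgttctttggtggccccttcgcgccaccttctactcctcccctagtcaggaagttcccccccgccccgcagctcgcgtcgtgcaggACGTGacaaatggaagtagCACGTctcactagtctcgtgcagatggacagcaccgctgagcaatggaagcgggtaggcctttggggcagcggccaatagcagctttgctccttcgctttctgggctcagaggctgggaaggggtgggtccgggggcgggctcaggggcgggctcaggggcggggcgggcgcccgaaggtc
Pgam1, chr19:41911621-41911920, + strand: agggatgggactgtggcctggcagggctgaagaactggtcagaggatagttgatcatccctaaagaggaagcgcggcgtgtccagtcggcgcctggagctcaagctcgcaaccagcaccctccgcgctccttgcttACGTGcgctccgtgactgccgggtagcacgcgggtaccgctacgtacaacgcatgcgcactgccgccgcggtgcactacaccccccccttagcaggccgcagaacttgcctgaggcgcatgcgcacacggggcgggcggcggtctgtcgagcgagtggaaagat
The *Ldha* window holds 5 matches, 4 of them as both strands of a pair of E-boxes, *Pgk1* holds 2 and *Pgam1* 1. *Ldha* has 2 starts in RefSeq, and the window of the start not printed holds no match. The core was found in 19.6% of all 32851 promoters and in 37.1% of the 62 promoters of members. Split by call, it was in 7 of the 16 promoters of genes called lower (43.8%) and in 16 of the 45 of genes not called (35.6%), which include *Hk2*, *Pfkfb3* and *Slc2a1*. The promoters of *Eno1* and *Tpi1* do not hold these letters in this window. *Hif1a* (NCBI gene 15251), the oxygen-regulated subunit of the factor, was called lower, at 25.8, 41.3, 47.3 and 36.4 CPM in control livers 1 to 4 and 20.5, 12.2 and 23.0 CPM in livers 1 to 3 labelled hep-/- (log2 fold change -1.02, standard error 0.26, edgeR adjusted p = 0.0258). It held the call in 4 of the 7 fits without a liver. Activity of the factor was not measured, and its part in the fall of these genes was not tested.

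Of the 5 glycogen genes, *Gys2* and *Gbe1*, which build the polymer, *Pygl*, which takes it apart, and *Pgm1* fell, and *Pgm2* was not called. Among the other enzymes that build glycogen, *Gyg1*, *Ugp2* and *Gys1* were not called, with log2 fold changes of -0.77 (edgeR adjusted p = 0.0667), -0.73 (edgeR adjusted p = 0.0799) and 0.36 (edgeR adjusted p = 0.534). *Gys2* (NCBI gene 232493), the glycogen synthase of liver, had 507, 662, 477 and 741 CPM in control livers 1 to 4 and 317, 215 and 336 CPM in livers 1 to 3 labelled hep-/-. All livers labelled hep-/- lay below every control (log2 fold change -1.04, standard error 0.25, edgeR adjusted p = 0.0184), and the value was -1.17 (edgeR adjusted p = 0.0240) without liver 3. *Gbe1* (NCBI gene 74185), the branching enzyme, had 35.02, 55.6, 79.3 and 38.7 CPM in control livers 1 to 4 and 18.2, 8.32 and 25.8 CPM in livers 1 to 3 labelled hep-/-. Control liver 3 was the highest and control liver 1 came nearest to the livers labelled hep-/-, and the groups did not overlap (log2 fold change -1.58, standard error 0.38, edgeR adjusted p = 0.0196). The mean level of *Gbe1* was 52.2 ± 20.2 CPM (SD, n = 4) against 17.5 ± 8.76 CPM (SD, n = 3), 2.99-fold lower.

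*Pygl* (NCBI gene 110095), the liver phosphorylase that releases glucose-1-phosphate from glycogen, was at 115, 138, 134 and 125 CPM in control livers 1 to 4 and 65.4, 49.8 and 96.9 CPM in livers 1 to 3 labelled hep-/-. The difference was called (log2 fold change -0.86, standard error 0.23, edgeR adjusted p = 0.0306), with -1.16 (edgeR adjusted p = 0.0108) without liver 3, but held in 2 of the 7 fits without a liver. *Pgm1* (NCBI gene 72157), the phosphoglucomutase that links glycogen to glucose-6-phosphate, had 178, 205, 203 and 189 CPM in control livers 1 to 4 and 90.5, 61.4 and 121 CPM in livers 1 to 3 labelled hep-/-. It showed a wide gap between groups (log2 fold change -1.09, standard error 0.24, edgeR adjusted p = 0.0133), was called in all 7 such fits and had -1.36 (edgeR adjusted p = 0.00879) without liver 3. *Gys2* and *Gbe1* each lost the call in the fit without control liver 2.

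*Pgm2* (NCBI gene 66681), a phosphoglucomutase with little RNA in liver, was not called, though all 3 livers labelled hep-/- were above every control. It had 9.38, 14.3, 14.3 and 14.4 CPM in control livers 1 to 4 and 25.03, 16.0 and 17.0 CPM in livers 1 to 3 labelled hep-/- (log2 fold change 0.56, standard error 0.23, edgeR adjusted p = 0.114). In their summed FPKM *Pgm1* took 94.3, 92.6, 92.5 and 92.0% in control livers 1 to 4 and 76.0, 77.0 and 86.2% in livers 1 to 3 labelled hep-/-. The share did not overlap between groups, at 92.9% ± 1.02 (SD, n = 4) and 79.7% ± 5.60 (SD, n = 3), and the two-sided exact permutation p of 0.0286 is the smallest that 4 livers against 3 allow. Symbols of this gene pair were exchanged between annotations in the past, and they are used here with the identifiers given.

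Transport of glucose and entry of pyruvate gave no calls. *Slc2a2* (NCBI gene 20526), the main glucose carrier of the hepatocyte membrane (GLUT2), had 197, 227, 249.6 and 218 CPM in control livers 1 to 4 and 202, 105 and 161 CPM in livers 1 to 3 labelled hep-/-. Liver 1 with the hep-/- label lay within the controls (log2 fold change -0.51, standard error 0.23, edgeR adjusted p = 0.150), and limma on log2(FPKM + 1) called the gene lower. That fit called 15.9% of the genes it tested lower and 5.14% higher. *Slc2a1*, the carrier GLUT1 of most other cells, had 19.4 ± 1.03 CPM (SD, n = 4) against 23.4 ± 3.22 CPM (SD, n = 3) and was not called, with a log2 fold change of 0.27 (edgeR adjusted p = 0.305). Of their summed FPKM, *Slc2a2* made up 91.3, 92.6, 93.4 and 91.7% in control livers 1 to 4 and 90.5, 84.0 and 86.1% in livers 1 to 3 labelled hep-/-, without overlap (two-sided exact permutation p = 0.0286).

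*Mpc2* (NCBI gene 70456), a subunit of the mitochondrial pyruvate carrier, was the most abundant gene of pyruvate entry in FPKM and stood at 197, 213, 237 and 295 CPM in control livers 1 to 4 and 282, 157 and 265 CPM in livers 1 to 3 labelled hep-/-, a log2 fold change of -0.0048 (edgeR adjusted p = 0.991) whose sign turned with normalization. Its partner *Mpc1* had a log2 fold change of -0.49 (edgeR adjusted p = 0.288). The subunits of pyruvate dehydrogenase *Pdha1* and *Pdhb* had log2 fold changes of -0.34 (edgeR adjusted p = 0.322) and -0.31 (edgeR adjusted p = 0.301). Of the kinases that switch the complex off, *Pdk1* and *Pdk2* had log2 fold changes of -0.26 (edgeR adjusted p = 0.452) and -0.37 (edgeR adjusted p = 0.198), with no call. *Pdk4* (NCBI gene 27273), a further kinase known to be induced in fasting, was at 22.2, 51.2, 97.3 and 44.1 CPM in control livers 1 to 4 and 147, 77.8 and 76.5 CPM in livers 1 to 3 labelled hep-/-. Control liver 3 lay within the range of the other group, and *Pdk4* was not called (log2 fold change 0.90, standard error 0.41, edgeR adjusted p = 0.145), although it was in the fit without control liver 3. Its share in the FPKM of the 3 kinases was 14.0, 27.9, 42.2 and 23.1% in control livers 1 to 4 and 57.9, 47.7 and 37.1% in livers 1 to 3 labelled hep-/-.

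*Khk* (NCBI gene 16548), ketohexokinase, which brings fructose into metabolism, had 126, 114, 153 and 155 CPM in control livers 1 to 4 and 118, 95.9 and 155 CPM in livers 1 to 3 labelled hep-/- and was not called (log2 fold change -0.16, standard error 0.22, edgeR adjusted p = 0.643). Nor was any regulator called. *Gckr* (NCBI gene 231103), a regulator of glucose phosphorylation in hepatocytes, had 76.6, 58.4, 54.8 and 69.8 CPM in control livers 1 to 4 and 56.9, 72.5 and 91.2 CPM in livers 1 to 3 labelled hep-/-, with a log2 fold change of 0.18 (edgeR adjusted p = 0.585) that became -0.014 without liver 3. The bifunctional enzymes of fructose bisphosphate control gave a log2 fold change of 0.49 (edgeR adjusted p = 0.0985) for *Pfkfb1* of liver, without overlap of its groups, and a log2 fold change of -0.027 (edgeR adjusted p = 0.954) for *Pfkfb3*, whose sign turned with normalization. *Ppargc1a*, a coactivator of gluconeogenic genes in fasting, had 27.1 ± 7.89 CPM (SD, n = 4) against 36.0 ± 11.5 CPM (SD, n = 3) and a log2 fold change of 0.41 (edgeR adjusted p = 0.301).

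Isoform shares were computed for 11 cases in all. The shares of *Eno3*, *Pgm1* and *Slc2a2* did not overlap between groups, each with a two-sided exact permutation p of 0.0286 and an adjusted value of 0.105 over the 11, so none passed after adjustment. *Hk3* took 77.7% ± 3.80 (SD, n = 4) and 77.1% ± 5.58 (SD, n = 3) of *Hk1* to *Hk3*, which are not all the hexokinases. *Pfkl* took 58.3% ± 4.32 and 58.5% ± 10.5 of the phosphofructokinases. *Pklr* took 40.8% ± 5.19 and 49.5% ± 10.1 of the pyruvate kinases (two-sided exact permutation p = 0.2). *Pck1* was over 99% of both carboxykinases in every liver.

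**Figure D3:**
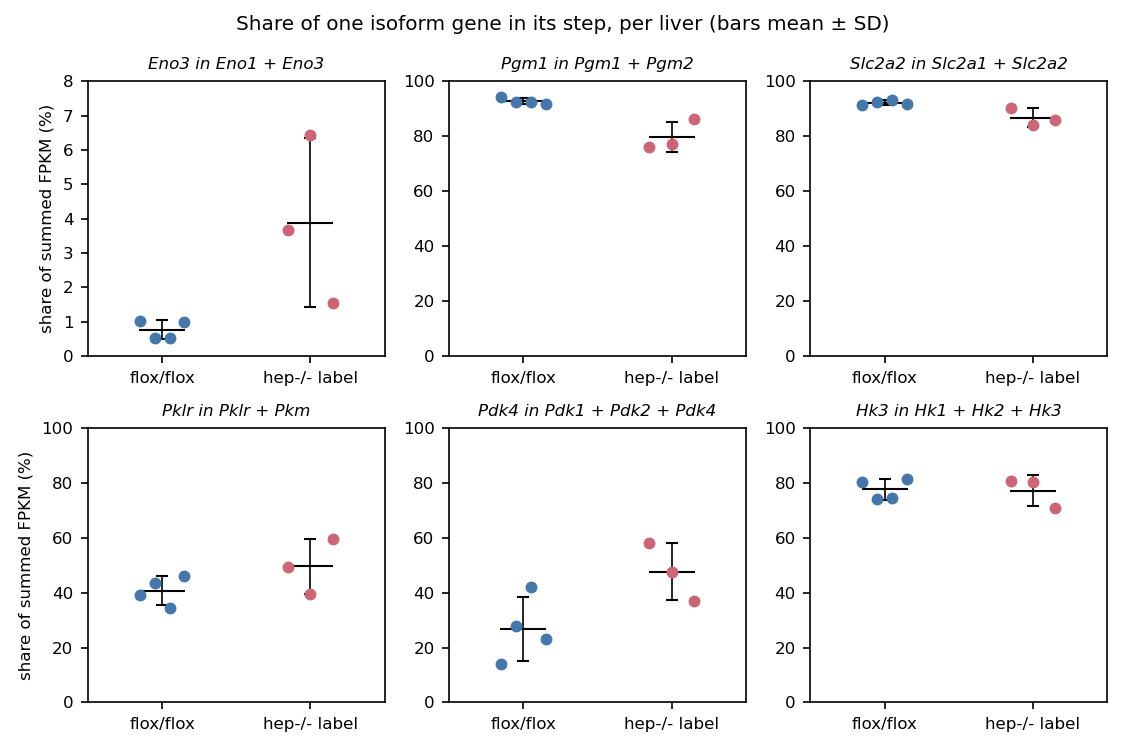
Share of the named gene in the summed FPKM of the isoform genes named over its panel (y axis, percent, on an axis to 8 for *Eno3* and to 100 for the others) in each liver, controls in blue and livers labelled hep-/- in red, bars mean ± SD. *Eno3*, *Pgm1* and *Slc2a2* separate the groups, and *Pklr*, *Pdk4* and *Hk3* overlap.

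Across livers, the 12 genes that fell kept an order. Set against the mean of the controls on the log2 CPM scale, their median was -1.26, -1.66 and -0.75 in livers 1 to 3 labelled hep-/- and between -0.13 and 0.082 in controls. Liver 3, the one with *B4galt1* at the level of controls, was the nearest of its group to the controls for 11 of the 12 genes, the exception being *Pkm*. It also had the smallest mitochondrially encoded share of its group, 14.4%. On the same scale, the median of all members was -0.30, -0.55 and -0.023 in livers 1 to 3 labelled hep-/-. In controls that median lay between -0.029 and 0.11. The order of the 3 livers was thus the same over all members and not only over the 12 genes. How often liver 3 was the nearest among all genes called lower was not counted. These 12 genes were chosen by the same contrast, so the gap between groups is a description. Pericentral hepatocyte genes were also low, with 6 of 8 called and a sum of 11189 to 12682 CPM in control livers and 3034 to 6501 CPM in livers labelled hep-/-, while 1 of 8 periportal genes was called lower. Glycolysis is known to lean to the pericentral and gluconeogenesis to the periportal side of the lobule, and the part of zonal markers in these results was not tested.

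**Figure D4:**
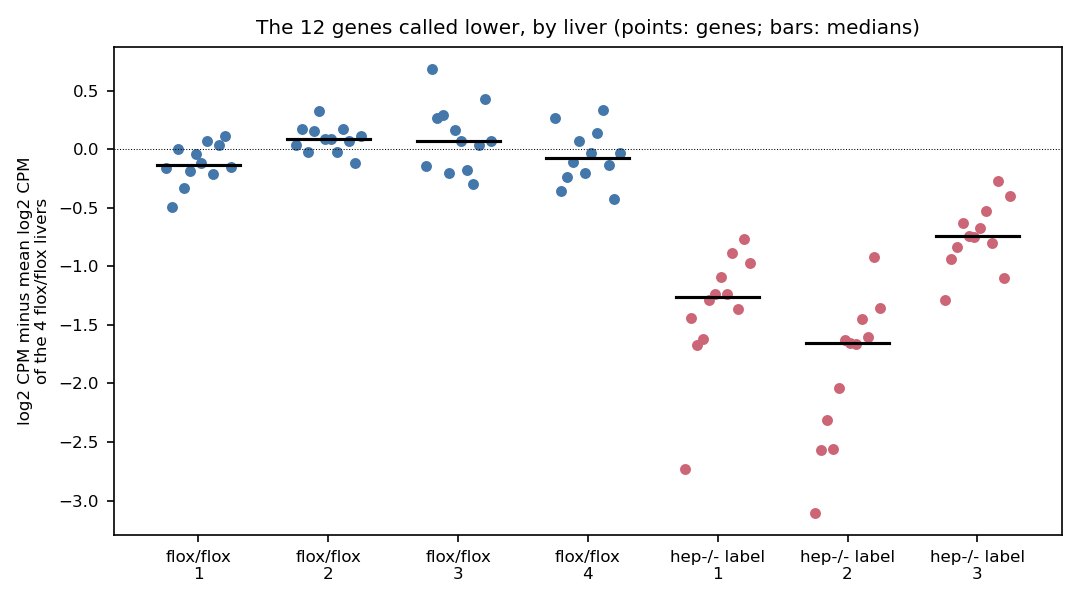
Each point is 1 of the 12 genes called lower in 1 liver, as log2 CPM minus the mean log2 CPM of the 4 controls (y axis), with livers on the x axis and bars for medians. Controls have medians between -0.13 and 0.082, liver 2 labelled hep-/- is lowest at -1.66 and liver 3 least changed at -0.75.

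A further list of 62 genes of the same pathways held other isoforms, glycogen regulators, transporters and regulators of transcription, of which 60 were found and 57 tested. Among them 9 were called lower and 5 higher, against 7.83% and 8.0% of all genes, with a median log2 fold change of -0.12. *Mlxipl*, which encodes the glucose-responsive factor ChREBP, was at 109, 48.5, 26.6 and 74.1 CPM in control livers 1 to 4 and 134, 189 and 187 CPM in livers 1 to 3 labelled hep-/- (log2 fold change 1.40, standard error 0.37, edgeR adjusted p = 0.0287), a call lost without liver 3 at 1.31 (edgeR adjusted p = 0.0660).

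Of glycogen genes outside the 42, *Stbd1* (NCBI gene 52331), which tethers glycogen to membranes, fell, with 67.2 ± 7.14 CPM (SD, n = 4) against 22.9 ± 3.37 CPM (SD, n = 3) (log2 fold change -1.55, standard error 0.19, edgeR adjusted p = 0.00219). *Ppp1r3b*, the liver subunit that directs a phosphatase to glycogen and activates the synthase, was higher at 40.8, 34.5, 68.6 and 34.3 CPM in control livers 1 to 4 and 68.4, 73.8 and 160.4 CPM in livers 1 to 3 labelled hep-/- (log2 fold change 1.18, standard error 0.33, edgeR adjusted p = 0.0341), with overlapping groups and no call without liver 3, at 0.66 (edgeR adjusted p = 0.138). *Phka1*, a subunit of phosphorylase kinase, rose as well, with 6.13 ± 1.44 CPM (SD, n = 4) against 14.4 ± 6.93 CPM (SD, n = 3) (log2 fold change 1.23, standard error 0.31, edgeR adjusted p = 0.0236). The calls of *Phka1*, *Ppp1r3b* and *Mlxipl* each held in 3 of the 7 fits without a liver, that of *Stbd1* in all 7. Further calls among glycogen genes were smaller, with a log2 fold change of 0.80 (edgeR adjusted p = 0.0401) for *Phkg2*, another subunit of phosphorylase kinase, -0.80 (edgeR adjusted p = 0.0450) for the phosphorylase *Pygb* of brain and -0.63 (edgeR adjusted p = 0.0402) for *Gaa*, the lysosomal glucosidase that breaks down glycogen. Those of *Phkg2* and *Gaa* held in 2 of the 7 fits and that of *Pygb* in 1, and without liver 3 *Pygb* had a log2 fold change of -0.59 (edgeR adjusted p = 0.109). *Ldhd*, which oxidizes D-lactate, fell, with 71.3 ± 6.57 CPM (SD, n = 4) against 33.4 ± 7.44 CPM (SD, n = 3) (log2 fold change -1.09, standard error 0.20, edgeR adjusted p = 0.00772). *Slc2a5*, the fructose carrier GLUT5, had few reads, 2.37, 1.51, 1.22 and 2.94 CPM in control livers 1 to 4 and 0.130, 0 and 0.0987 CPM in livers 1 to 3 labelled hep-/-, and was called lower (edgeR adjusted p = 0.00465). Its counts in the livers labelled hep-/- were near or below 3 reads, and no fold is given.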

How the data were processed

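Liver RNA of 7 mice on CDAHFD was profiled, 4 *B4galt1* flox/flox and 3 labelled *B4galt1* hep-/-, with 1 library each. Libraries were made with a VAHTS Universal V6 kit. The submitters' processing notes name fastp, HISAT2, HTSeq, DESeq2, R 3.2.0 and GRCm39, and the strand setting and annotation are not given in the sources used here. The authors deposited raw counts per gene and, for the same genes, FPKM values, which within a gene follow the count over the library total in every liver. All columns of sample values were used. Totals of 30608271 to 39668509 counts put 3 counts at 0.0690 to 0.0987 CPM; this floor covers counting error only. That libraries are separate animals rests on the labels.

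Genes were kept by filterByExpr (minimum count 10, total 15; 15179 of 23347), TMM-normalized and tested with the quasi-likelihood F-test of edgeR 4.0.16 in R 4.3.3 without a block, with Benjamini-Hochberg adjustment over all genes tested. Standard errors were derived from each gene's F value. Isoform shares were compared by exact permutation of the 7 livers (scipy 1.17.1). DESeq2 1.42.0, limma 3.58.1 after log2 transformation of FPKM (pseudocounts 1 and 0.1), other filters and normalizations, a replicate block and each liver left out were alternatives. A pseudocount understates changes of low genes. The fits were checked on simulated counts first. Members and lists were chosen with earlier results of these data known. Named with values in every liver are the called members and the member with the highest FPKM of each step, together with *G6pc1*, *Pklr*, *Pgm2*, *Gapdh* and *Pdk4*, added after their values were seen; of the other pathway genes, those among the 8 called with the largest change, of which 1 is not reported here, and *Phkg2*, *Pygb*, *Gaa*, *Gyg1*, *Ugp2* and *Gys1*, added likewise.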

Additional observations from a re-analysis of the deposited data

Results flagged for a closer look

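Among the 53 sets of 4 control values examined (42 genes and 11 isoform shares), 3 held a value far from the other controls by Dixon's test, where chance gives about 1 in 20. *Pfkfb1* was at 32.9 CPM in control liver 2, under 38.4 to 38.9 CPM in the other controls. *Eno1* was at 427 CPM in control liver 4, the others lying between 481 and 492 CPM. *Pgm2* was at 9.38 CPM in control liver 1, with 14.3 to 14.4 CPM in the rest. The control values thus far out were the lowest of their group in all 3 genes, and each came from a different liver. The livers labelled hep-/- number 3 and were not examined in this way.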

How the results depend on the processing

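Over 18 alternatives to the edgeR fit, the log2 fold changes of the 42 genes kept their direction and side of the threshold in 698 cases, lost a call in 31, gained one in 3 and changed sign in 22. Members called lower numbered 12 and ran from 5 to 12 when a liver was left out, 5 being without control liver 2; members called higher ran from 0 to 1 in those fits, and 0 on log2(FPKM + 1), on log2(FPKM + 0.1) and on log2(FPKM + 1) over all genes above 0. The fit without control liver 2 also lowered the calls over all genes, to 474 lower and 411 higher, and the cause was not tested. On log2(FPKM + 1) the median of all genes shifted to -0.14 and 24.5% of calls were higher, against 50.5%; of the members 13 were called lower, 12 of them among the 13 called before, with *Slc2a2* gained and *Eno3* lost. The other pathway genes called lower, 9, became 17 with DESeq2, 14 with at least 1 count in any library, 15 and 17 on log2(FPKM + 1) and log2(FPKM + 0.1), and 4 to 11 with a liver left out. Those called higher, 5, became 3 with the replicate block, 2 and 2 on those FPKM scales, 0 over all genes above 0, and 1 to 6 with a liver left out. Signs turned for 5 members near 0, none of them called. With a liver left out the values ranged from -0.014 to 0.32 for *Gckr*, -0.19 to 0.16 for *Pfkp*, -0.17 to 0.15 for *Pfkfb3*, -0.11 to 0.18 for *Gapdh* and -0.17 to 0.22 for *Mpc2*. *Pfkp* turned to -0.10 with the block, -0.054, -0.075 and -0.054 on FPKM. *Pfkfb3* turned to 0.011 with upper-quartile scaling and *Gapdh* to -0.050, -0.052 and -0.050 on FPKM. *Mpc2* turned to 0.0053 with DESeq2 and with RLE, 0.029 with upper-quartile scaling, 0.0097 with at least 10 counts in every library, 0.080 with the block.

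Differences of isoform shares (percentage points, hep-/- label minus control) ran over fits without a liver from -1.86 to 1.01 for *Hk1*, -1.13 to 2.59 for *Hk2*, -2.19 to 2.72 for *Hk3*, -4.10 to 6.01 for *Pfkl* and -0.0738 to 0.0817 for *Pck1*, all of which changed sign, and from 1.84 to 4.30 for *Eno3*, -16.3 to -11.2 for *Pgm1* and -7.16 to -3.92 for *Slc2a2*, where fewer livers cannot reach the threshold. Over summed counts the difference for *Pfkl* was -0.821.

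Replicate numbers are shared by 3 animals of each group that the labels do not pair, and same-numbered livers did not deviate together (correlations of -0.42, -0.097 and 0.094 for numbers 1 to 3). With the replicate block 8 members were called lower and 1 higher, all among the 13, without *Eno1*, *Gys2*, *Pygl* and *Tpi1*.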
